A study of Danio rerio with 4 samples.

Results

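The genes described here build, bind or remodel the extracellular matrix of the zebrafish ovarian follicle: collagens, laminins, integrins, matrix metalloproteinases (MMP), their tissue inhibitors (TIMP) and ADAMTS proteases. They were taken by name from the protein-coding rows of the mRNA table, as names that begin with col and a digit, lama, lamb, lamc, itga, itgb, mmp, timp or adamts, and transcripts of the same name were summed. The table holds 25066 coding gene names, of which 160 matched, and 53 of these reached 1 FPKM or more in at least 1 of the 2 mRNA libraries. FPKM is a fragment number divided by transcript length and by the size of the library, so levels can be compared between genes. The prefixes also took 5 names of unrelated families: COL4A3BP (2 of 2) and col4a3bpa, which are named for ceramide transfer protein, the integrin-binding proteins itgb1bp1 and ITGB1BP2, and itgbl1, an integrin-like secreted protein. Of these 4 reached 1 FPKM, which leaves 49 genes of the named families.

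The study compared ovarian follicles of AB strain zebrafish aged 3 months, dissected in Leibovitz L-15 medium and sorted by size and appearance. Primary growth follicles, which hold a small oocyte in a thin cell layer, gave 1 mRNA library, and pre-vitellogenic follicles, the next stage before yolk uptake, gave the other. No treatment or mutation is named, and the sources used here do not say whether follicles of several fish were pooled. With 1 library per stage no difference below has a replicate check or a p-value.

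In the follicle a basement membrane lies between the granulosa cells around the oocyte and the theca cells outside. Laminins, trimers of an alpha, a beta and a gamma chain, and type IV collagen form the sheets of such membranes, while fibrillar collagens and type VI collagen lie in the stroma beyond. Integrins are receptors made of an alpha and a beta subunit that tie cells to these proteins. MMP and ADAMTS enzymes cut matrix proteins, and TIMPs bind and inhibit MMPs.

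Most of the 53 genes had low levels that were higher in pre-vitellogenic follicles. Their median level was 1.07 FPKM at the earlier stage and 2.06 FPKM at the later one, against 8.67 and 15.5 FPKM for all 13435 coding genes at 1 FPKM or more. Only 7 of the 53 stood above the coding median of the pre-vitellogenic library. At the threshold of 1 FPKM, 26 genes passed in both libraries, 24 in the pre-vitellogenic library alone and 3 in primary growth alone. Of the 13435 coding genes, 11314 passed in both. With levels this near the threshold, passing in 1 library alone does not show that a gene appeared or was lost. Just inside the threshold lay col1a1b (1.02 FPKM in its higher library) and COL5A3 (1.02 FPKM), and just outside it col27a1b (0.986 FPKM) and itgb2 (0.935 FPKM). Read depth is unknown for these libraries.

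**Figure D1:**
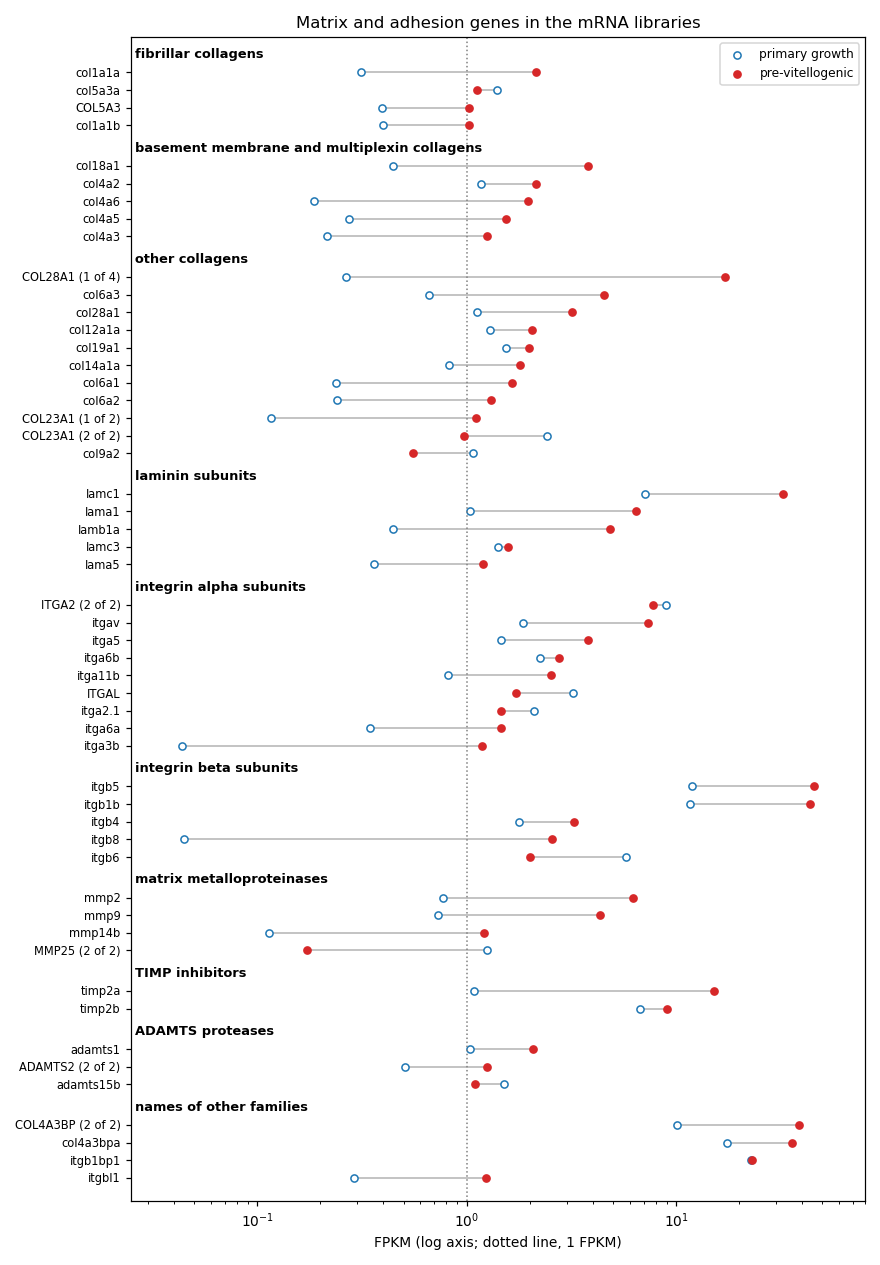
FPKM of 52 of the 53 genes by class on a log axis, with open blue points for the primary growth library and filled red points for the pre-vitellogenic library (1 library each, no error bars). Most red points lie to the right of the blue ones, and among the red points itgb5, itgb1b, lamc1 and the ceramide transfer protein genes are the highest.

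Differences are given as pre-vitellogenic minus primary growth on the log2(FPKM + 1) scale, which shrinks differences of low genes, and a gene is called higher or lower at 2-fold, a difference of 1 or more either way. By this rule 18 of the 53 genes (34.0%) were higher, against 29.5% of all coding genes, and 1 gene (1.89%) was lower, against 5.42%. The median difference was 0.89 for the 53 genes and 0.52 for all coding genes. After all differences were centred on the median of genes present in both libraries, 14 were higher and 4 lower, against 14.9% and 12.3% of coding genes. After scaling by the 75th percentile 16 of 51 genes were higher and 3 lower, against 17.7% and 11.3%. A difference above 0 was seen in 83.0% of the 53 genes and in 71.3% of coding genes. For the 24 genes that passed the threshold only in the pre-vitellogenic library, the threshold itself fixed that sign. Without a filter the median difference was 0.22 for 149 genes of the set and 0.24 for 20350 coding genes.

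Transcript length runs alongside these counts. The weighted transcript length had a median of 3033 bases for the 53 genes and 1777 bases for all coding genes, and 28 of the 53 (52.8%) fell in the 2 longest of 10 equal bins of length. Coding genes in those 2 bins had a median difference of 1.13. At the rates of coding genes in the same length bins 23.2 of the 53 would be higher and 1.08 lower. With level matched as well, in 3 classes below 2, below 5 and from 5 FPKM, the numbers were 17.5 and 1.08, next to the observed 18 and 1. Subtracting the median of the length bin left 6 genes higher (background 11.6%), 7 lower (background 8.64%) and a median of -0.0017. On the log2(FPKM + 1) scale, genes of the 2 longest bins near 1 FPKM cannot be 2-fold higher by this measure. At a pseudocount and threshold of 1 FPKM the group thus showed about the rate of coding genes of its length and level. This matching was not run at other settings. Without it, a pseudocount of 0.1 FPKM gave 35 of the 53 higher, against 36.5% of coding genes. A pseudocount of 5 FPKM gave 6 higher, against 14.1%. The account below turns on single genes.

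**Figure D2:**
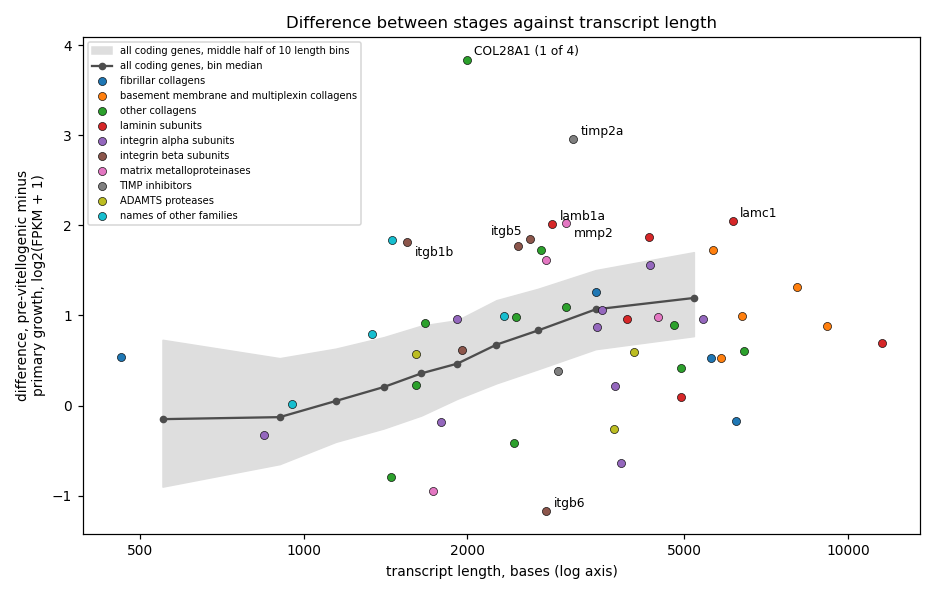
Difference between stages (log2(FPKM + 1), pre-vitellogenic minus primary growth) against transcript length in bases on a log axis, coloured by class, over the median and middle quartiles of all coding genes in 10 length bins. Many of the long collagen genes lie below the coding median, while lamc1, COL28A1 (1 of 4), timp2a, lamb1a, itgb1b and itgb5 lie above it and itgb6 below it.

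The 6 genes that stayed 2-fold higher after the length bin was subtracted were COL28A1 (1 of 4), timp2a, COL4A3BP (2 of 2), itgb1b, lamb1a and itgb5. They also stayed past 2-fold under each of the 4 scalings tried. Of them lamb1a sums 2 Ensembl gene IDs. The gene itgb5 passed narrowly, at 1.01, with a weighted length of 2607 bases that averages transcripts as short as 767 bases. Its most abundant transcript, of 3407 bases, had a difference of 1.32, and coding genes of that length bin had a median of 1.07. Taken alone, this transcript would not pass with the length bin subtracted. For itgb1b, with a difference of 1.81, the bin rests on a single transcript of 1548 bases and had a median of 0.36. Its copy itgb1a had a weighted length of 3252 bases. Against the bin of that length, with a median of 1.07, itgb1b would not pass. The 7 that were lower by that measure were itgb6, ITGAL, col5a3a, adamts15b, MMP25 (2 of 2), lamc3 and col9a2. Of these col5a3a and adamts15b each sum 2 Ensembl gene IDs. The col9a2 level came to 28.2% and 37.2% from a non-coding transcript of 823 bases. Its coding transcripts, at 0.385 and 0.384 FPKM in primary growth, would not pass the threshold without it. Only itgb6 among the 7 was 2-fold lower in the values as deposited.

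The class counts from here on stand beside 29.5% of coding genes higher and 5.42% lower. A gene that passed the threshold in the pre-vitellogenic library alone could not be counted as lower. In the 2 longest length bins 54.9% and 61.7% of coding genes were higher. Those bins held most of the measured laminin genes and all measured basement membrane and multiplexin collagens. Laminin subunits gave 3 of 6 genes higher and none lower. Their median difference was 1.42, and 0.29 with the length bin subtracted. Summed over the 16 laminin names, the level was 13.6 FPKM at the earlier stage and 53.9 FPKM at the later one. The gamma chain gene lamc1 (Zv9 chromosome 2, 35601433 to 35700011) was at 7.12 FPKM in primary growth and 32.6 FPKM in pre-vitellogenic follicles, a difference of 2.05. It held 52.6% and 60.4% of all laminin FPKM, the largest share in both libraries. Its transcript of 6133 bases belongs to the longest bin, and with that bin's median subtracted the difference was 0.85.

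The alpha chain gene lama1 and the beta chain gene lamb1a, which encode the partners of lamc1 in the laminin trimer of early basement membranes, were less abundant. The level of lama1 was 1.03 FPKM in primary growth and 6.43 FPKM in pre-vitellogenic follicles (difference 1.87), spread over a long transcript of 8040 bases and a short one of 1098 bases. For lamb1a it was 0.442 and 4.82 FPKM (difference 2.01), summed over 2 Ensembl gene IDs annotated on opposite strands of chromosome 25. Each of those lamb1a IDs was higher in pre-vitellogenic follicles, at 0.135 and 2.52 FPKM for the first and 0.307 and 2.298 FPKM for the second. All chains of this trimer were therefore higher in the later library, with the gamma chain gene above the others in both. For lamb1a the threshold fixed that sign, since it passed in the later library alone. With the length bin subtracted the differences of lama1 and lamb1a were 0.67 and 1.18, and of these chains only lamb1a stayed past 2-fold. That value rests on the sum of the 2 lamb1a IDs. Singly they had differences of 1.63 and 1.33, on transcripts of 3381 and 2331 bases. Coding genes of those length bins had medians of 1.07 and 0.68, so neither ID would pass alone.

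Chains of other laminins differed less. The alpha chain gene lama5 had 0.361 and 1.2 FPKM, with 11542 bases of transcript, and a difference of 0.69. The gamma chain gene lamc3 was close to level, at 1.42 and 1.58 FPKM (difference 0.10). The 10 laminin names below 1 FPKM included lamb2l at 0.234 and 0.918 FPKM and lama4, a vascular laminin chain, at 0.305 and 0.588 FPKM.

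Collagens were below 5 FPKM at both stages, except COL28A1 (1 of 4) in pre-vitellogenic follicles. Of 56 collagen names 20 reached 1 FPKM, 6 of these were higher and none lower. The median difference of the 20 was 0.89, or -0.17 with the length bin subtracted. All 6 higher ones passed the threshold in the pre-vitellogenic library alone, so it allowed them only differences above 0. Fibrillar collagens gave 1 of 4 higher. Type I collagen, the main fibre of connective tissue, was represented by col1a1a at 0.312 and 2.15 FPKM (difference 1.26), its copy col1a1b at 0.399 and 1.02 FPKM, and col1a2 at 0.0746 and 0.4001 FPKM. Of the pre-vitellogenic col1a1a level 53.0% came from a non-coding transcript of 697 bases that was listed at 0 in primary growth, and with coding transcripts alone col1a1a was not 2-fold higher. Of the genes named for type V collagen, col5a3a was at 1.39 and 1.11 FPKM (difference -0.18) and COL5A3 at 0.394 and 1.02 FPKM (difference 0.54), and the others stayed below 1 FPKM.

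Basement membrane and multiplexin collagens gave 2 of 5 higher, and all 5 had a difference above 0. For col18a1, col4a6, col4a5 and col4a3 the threshold fixed that sign, since they passed it in the pre-vitellogenic library alone. Only col4a2 could have gone either way. The gene col18a1, whose protein carries the endostatin fragment, was at 0.443 and 3.79 FPKM (difference 1.73, or 0.54 with length). Type IV collagen genes were at most 2.14 FPKM. The gene col4a6 was at 0.187 and 1.96 FPKM (difference 1.32), and col4a5 at 0.274 and 1.54 FPKM, just short of 2-fold. These neighbours lie on opposite strands of chromosome 7 with their 5′ ends 1094 bases apart, and both were higher in pre-vitellogenic follicles. Another such pair on chromosome 9, col4a1 at 0.195 and 0.632 FPKM and col4a2 at 1.18 and 2.14 FPKM, differed less. In a further pair on chromosome 15, which overlaps by 538 bases, col4a3 was at 0.215 and 1.24 FPKM and col4a4 at 0.123 and 0.130 FPKM. With the length bin subtracted none of the type IV genes was 2-fold higher. At their levels none could be on the scale used, whatever the primary growth value.

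Among the other collagens COL28A1 (1 of 4) stood apart. It was at 0.265 FPKM in primary growth and 17.1 FPKM in pre-vitellogenic follicles, a difference of 3.84, the largest of the 53 genes. Type XXVIII collagen is a short collagen with von Willebrand factor A domains, described in mouse mainly around peripheral nerve. The gene lies on Zv9 chromosome 6 at 3446263 to 3485273, and its transcripts of 2418 and 1473 bases were both higher, at 0.193 and 9.37 FPKM and at 0.0719 and 7.70 FPKM. Another gene of that name, col28a1 on chromosome 19, was at 1.12 and 3.18 FPKM (difference 0.98), and the names 2 of 4 and 4 of 4 stayed below 0.1 FPKM. No current symbol was found for COL28A1 (1 of 4), so its identity rests on the deposited name, and 2 of 4 is now named col28a2a. How reads were split between these genes is uncertain.

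Type VI collagen, a beaded filament of stroma next to basement membranes, had its main chains past the threshold in the pre-vitellogenic library alone. The threshold thus allowed them only differences above 0. The genes col6a1 (0.237 and 1.64 FPKM), col6a2 (0.241 and 1.31 FPKM) and col6a3 (0.662 and 4.50 FPKM) had differences of 1.09, 0.89 and 1.73, so col6a2 missed the 2-fold mark. With the length bin subtracted the differences were 0.02, -0.30 and 0.89, none of them past 2-fold. At their levels col6a1 and col6a2 could not pass it by that measure, whatever the primary growth value. Most of the col6a3 level lay on short transcripts, and its transcript of 11949 bases was at 0.0974 and 0.638 FPKM. Some collagens had differences below 0 that did not pass the 2-fold rule. COL23A1 (2 of 2), a transmembrane collagen, was at 2.42 and 0.974 FPKM (difference -0.79) while COL23A1 (1 of 2) was at 0.116 and 1.11 FPKM (difference 0.92), and col9a2, a cartilage collagen chain, was at 1.07 and 0.554 FPKM. The fibril-associated genes col12a1a, col14a1a and col19a1 had differences of 0.22 to 0.61, and col19a1 overlaps an unnamed gene on the same strand (1.78 and 2.44 FPKM). The name col19a1 sums 2 Ensembl gene IDs. Of its level 92.5% and 85.5% came from a transcript of 1190 bases whose ID has no current symbol. The ID with the current symbol col19a1 stayed below 1 FPKM.

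**Figure D3:**
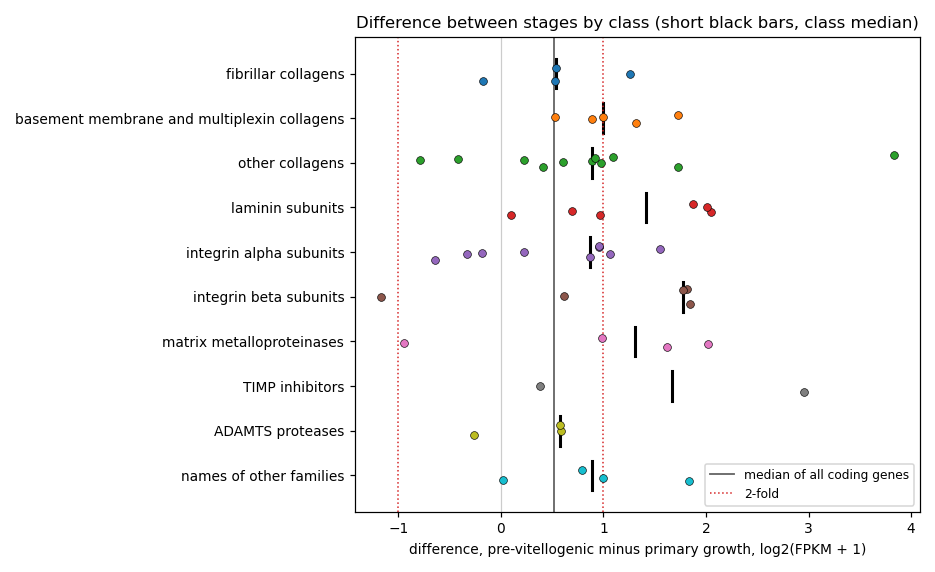
Difference between stages of each of the 53 genes by class, as log2(FPKM + 1), pre-vitellogenic minus primary growth, with class medians as short black bars, the coding median of 0.52 as a grey line and 2-fold marks dotted. Integrin beta subunits hold both the single lower gene, itgb6, and 3 of the higher ones, and the point at 3.84 is COL28A1 (1 of 4).

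Integrin beta subunits were the most abundant receptors of the set. Of 5 measured genes 3 were higher and 1 was lower. Their median difference was 1.77, or 0.94 with the length bin subtracted. The gene itgb5 (chromosome 9, 23710848 to 23781360) was at 11.96 FPKM in primary growth and 45.6 FPKM in pre-vitellogenic follicles (difference 1.85). The gene itgb1b (chromosome 2, 46095866 to 46102453), a copy of the beta 1 subunit that most matrix-binding integrins share, was at 11.7 and 43.4 FPKM (difference 1.81). Together they held most of the FPKM of beta subunits, 37.2% and 36.3% at the earlier stage, then 45.6% and 43.4%. The model of itgb1b is a single transcript of 1548 bases, and the names itgb1a, itgb1b.1 and itgb1b.2 stayed below 1 FPKM, so reads shared among the beta 1 copies may be split unevenly.

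The other beta subunits went different ways. The gene itgb6, whose protein in mammals pairs with the alpha V subunit in epithelia, was at 5.78 FPKM in primary growth and 2.01 FPKM in pre-vitellogenic follicles, a difference of -1.17. It held 18% of beta subunit FPKM in the first library and 2.01% in the second. It was short of 2-fold, at -0.91, with mitochondrially encoded genes left out and libraries set to the same FPKM total. By contrast itgb8, another alpha V partner, was at 0.0446 and 2.57 FPKM (difference 1.77), and itgb4, the partner of alpha 6 in hemidesmosomes, at 1.77 and 3.25 FPKM (difference 0.61). Most of the itgb4 level, 90.3% and 85.8%, came from a non-coding transcript of 964 bases. Its coding transcript of 8806 bases was at 0.171 and 0.460 FPKM, below the threshold of 1 FPKM. The alpha V gene itgav itself was at 1.85 and 7.38 FPKM (difference 1.56, or 0.36 with length). Among the known partners of alpha V, itgb5, itgb8 and itgb1b were thus higher and itgb6 lower, while itgb3a and itgb3b stayed below 0.4 FPKM. Of these itgb8 passed the threshold in the pre-vitellogenic library alone, so it could not have been counted as lower.

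Integrin alpha subunits gave 2 of 9 higher and none lower. Their median difference was 0.87, or -0.20 with the length bin subtracted. Besides itgav the higher gene was itga3b, for a laminin-binding subunit, at 0.0437 and 1.18 FPKM (difference 1.07). With the length bin subtracted its difference was -0.0017. At its level it could not have passed 2-fold by that measure, whatever its primary growth value. The most abundant alpha subunit in both libraries was ITGA2 (2 of 2), named for the collagen-binding alpha 2 subunit, at 8.96 and 7.76 FPKM (difference -0.18). It lies in a row with itga1, itga2.1 and itga2.2 on chromosome 10, with gaps of 1564 to 3298 bases, and among these itga2.1 was at 2.096 and 1.46 FPKM while itga1 (0.0893 and 0.679 FPKM) and itga2.2 stayed below 1 FPKM.

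Other alpha subunits did not pass the 2-fold rule. The fibronectin receptor subunit gene itga5 was at 1.46 and 3.79 FPKM (difference 0.96) and the collagen-binding itga11b at 0.810 and 2.51 FPKM (difference 0.96). Of the pre-vitellogenic itga11b level 80.8% came from a transcript of 360 bases that was listed at 0 in primary growth. The itga11b transcript of 4362 bases went the other way, at 0.810 and 0.482 FPKM. The copies of the laminin-binding alpha 6 subunit differed in level, with itga6b at 2.23 and 2.76 FPKM and itga6a at 0.343 and 1.46 FPKM. ITGAL, named for a leukocyte subunit, was at 3.22 and 1.71 FPKM (difference -0.64). The whole ITGAL gene overlaps CABZ01043370.1 on the opposite strand, at 15.1 and 20.8 FPKM, and whether the counting used strand is not stated by the labels or headers, so reads of the pair cannot be told apart. Its usual partner itgb2 stayed below 1 FPKM.

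Of 24 MMP names 4 reached 1 FPKM, with 2 higher and none lower. The 2 higher ones passed the threshold in the pre-vitellogenic library alone, so it allowed them only differences above 0. The gelatinase gene mmp2 (chromosome 7, 36864730 to 36887581) was at 0.770 FPKM in primary growth and 6.20 FPKM in pre-vitellogenic follicles (difference 2.02), and mmp9, the other gelatinase, at 0.732 and 4.32 FPKM (difference 1.62). With the length bin subtracted these were 0.96 and 0.79, both short of 2-fold. The membrane-type gene mmp14b, whose mammalian counterpart activates MMP2 together with TIMP2, was at 0.113 and 1.21 FPKM (difference 0.99), and its copy mmp14a at 0.0190 and 0.783 FPKM. MMP25 (2 of 2), another membrane-bound MMP, was the reverse, at 1.25 and 0.172 FPKM (difference -0.94).

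The TIMP genes measured were both copies of timp2. In primary growth timp2b was the higher copy, at 6.72 FPKM against 1.09 FPKM for timp2a, and in pre-vitellogenic follicles timp2a was the higher, at 15.2 FPKM against 9.04 FPKM. The difference was 2.95 for timp2a (chromosome 12, 35487183 to 35531600) and 0.38 for timp2b (chromosome 3, 58446853 to 58480406), on transcripts of 3127 and 2938 bases. With length bins subtracted these were 1.89 and -0.45. So timp2a held 13.9% of the summed FPKM of TIMP genes at the earlier stage and 62.7% at the later one.

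ADAMTS proteases gave none past 2-fold among 3 measured. The gene adamts1, a protease known from ovulation in mouse, was at 1.03 and 2.06 FPKM (difference 0.59), ADAMTS2 (2 of 2), named for a procollagen peptidase, at 0.505 and 1.24 FPKM, and adamts15b at 1.503 and 1.09 FPKM. The name adamts15b sums 2 Ensembl gene IDs on opposite strands, with current symbols ADAMTS15 and ADAMTS8, and neither reached 1 FPKM alone. The name adamts15a was at 0.157 and 0.887 FPKM. None of the 4 names of ADAMTS-like proteins, which lack the protease part, reached 1 FPKM.

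Of the names of other families 3 were among the most abundant of the 53. COL4A3BP (2 of 2) was at 10.1 and 38.7 FPKM (difference 1.83) and col4a3bpa at 17.4 and 35.7 FPKM (difference 0.99). The integrin-binding protein gene itgb1bp1 was level at 22.8 and 23.2 FPKM, and itgbl1 was low, at 0.290 and 1.23 FPKM (difference 0.79). Without these names 17 of 49 genes were higher and 1 lower, and the median difference was 0.89.

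Names that differ only in a last a or b, the usual mark of copies from the fish genome duplication, gave 11 pairs of which at least 1 copy reached 1 FPKM. The other copy of 8 pairs stayed below 1 FPKM, where a 2-fold difference cannot be reached on the scale used, so no count of calls is given. Both copies reached 1 FPKM for col1a1, itga6 and timp2. With a pseudocount of 0.1 FPKM both col1a1 copies were 2-fold higher, at 2.45 for col1a1a and 1.17 for col1a1b, whereas timp2a (3.69) and timp2b (0.42) still differed. Low copies with higher pre-vitellogenic values were itgb1a, at 0.136 and 0.930 FPKM, and lamb1b, at 0.0398 and 0.308 FPKM, while itga3a was at 0.645 and 0.423 FPKM.

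Intervals deposited by the authors with each FPKM value were wide. None of the 60 transcripts of these genes at 1 FPKM or more had intervals that lay apart between stages, against 0.0384% of coding transcripts. The interval of lamc1 was 0.0419 to 14.2 FPKM in primary growth and 3.68 to 61.4 FPKM in pre-vitellogenic follicles. That of timp2a was 0 to 2.51 and 0 to 31.9 FPKM. A lower bound above 0 in either library was found for 3 of the 60 transcripts (5%), those of lamc1, itgb1b and COL4A3BP (2 of 2), and for 15.4% of coding transcripts.

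The 107 names below 1 FPKM in both libraries included 11 listed at 0 in both. Among them were the cartilage collagens col2a1a and col2a1b, most MMPs including the collagenases mmp13a and mmp13b, the platelet subunit gene itga2b, listed at 0, and TIMP4, also listed at 0.

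Genes that make, bind or cut the same matrix were read from 4 further lists, counted against the same background of 29.5% higher and 5.42% lower. Collagen processing counted 6 higher and 1 lower among 19, and its median difference was 0.29, or -0.18 with the length bin subtracted. The most abundant were p4hb, a subunit of prolyl hydroxylase, at 854 and 452 FPKM (difference -0.92), ppib at 231 and 193 FPKM, ctage5 at 32.5 and 70.9 FPKM and p4ha1b, the catalytic subunit, at 31.4 and 34.1 FPKM. Higher genes were led by sec24d (2.04 and 10.1 FPKM) and sec23a (8.68 and 29.9 FPKM), coat proteins of vesicles that leave the endoplasmic reticulum, and serpinh1a, a collagen chaperone (0.273 and 2.60 FPKM). The lower gene was loxl3b, of the lysyl oxidase family that cross-links collagen, at 11.1 and 4.45 FPKM. With the length bin subtracted none of this list was 2-fold higher and 2 genes were lower, p4hb (-1.75) and loxl3b (-1.36).

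Other matrix proteins counted 8 higher and 1 lower among 24 (median 0.67). Length bins subtracted, 5 were higher, 3 were lower and the median was -0.20. The largest differences were those of MFAP4 (8 of 14), from 1.37 to 58.1 FPKM (4.64), MFAP4 (12 of 14), from 0.0947 to 11.1 FPKM (3.46), and emilin1b, from 1.38 to 15.3 FPKM (2.77). The MFAP4 names are numbered copies of a gene for a microfibril-associated protein, and the split of reads between copies is uncertain. The gene ecm1b was at 4.13 and 28.3 FPKM, postna, for the matrix protein periostin, at 20.8 and 20.7 FPKM, and fbln5, an elastic fibre protein, was the lower gene, at 7.31 and 3.07 FPKM. Integrin adaptors and other adhesion partners counted 10 higher and none lower among 25 (median 0.84, or 0.03 with the length bin subtracted). These were led by gpc4, a glypican (1.09 and 10.2 FPKM), tln2a, a talin that links integrins to actin (2.87 and 15.7 FPKM), and fermt2, a kindlin that activates integrins (1.93 and 11.6 FPKM), whereas cd9b (72.8 and 75.9 FPKM) and sdc4 (68.3 and 68.8 FPKM) were level. Length bins subtracted, 2 adhesion partners were higher and 2 lower. By that measure gpc4 stayed past 2-fold (1.75), while tln2a (0.92) and fermt2 (0.91) fell short. Other extracellular proteases and inhibitors counted 6 higher and none lower among 16 (median 0.72). Length bins subtracted, 3 were higher, none was lower and the median was -0.24. Among them adam17a, a sheddase, was at 1.46 and 10.0 FPKM (2.16), and PCSK6, a proprotein convertase, at 2.28 and 10.4 FPKM (1.80).

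**Figure D4:**
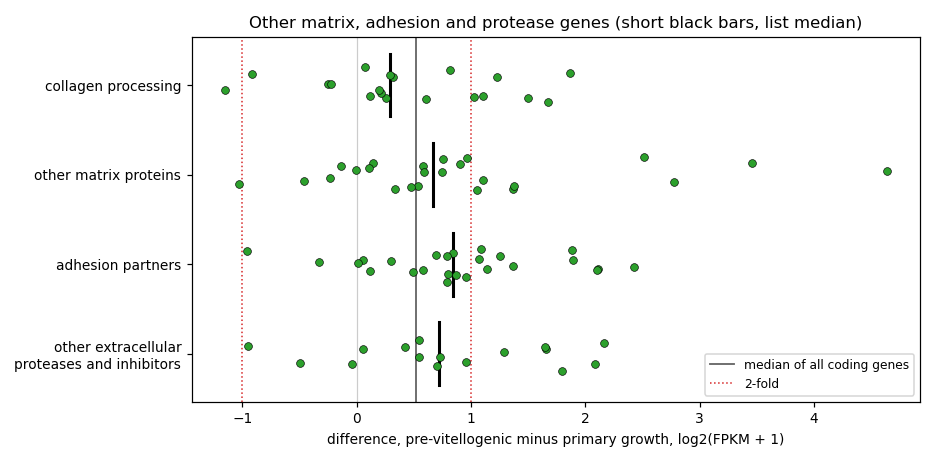
Difference between stages, as log2(FPKM + 1), pre-vitellogenic minus primary growth, for 4 lists of related genes that reached 1 FPKM, with list medians as short black bars. The medians of 0.29, 0.67, 0.84 and 0.72 lie around the coding median of 0.52, drawn as a grey line, and the point at 4.64 is MFAP4 (8 of 14).

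At 1 FPKM or more, most marker names of granulosa, theca and stroma, and smooth muscle were higher in pre-vitellogenic follicles. Most oocyte names were lower, and most endothelium, erythrocyte and leukocyte names passed 2-fold neither way. The counts below stand beside the same background of 29.5% of coding genes higher and 5.42% lower. Oocyte markers were high in both libraries, with a sum of 7257 FPKM in primary growth and 2267 FPKM in pre-vitellogenic follicles, and 4 of 6 were lower. All 6 granulosa marker names at 1 FPKM or more, of 8 found, were higher, with sums of 3.04 and 21.0 FPKM, and fshr was listed at 0 in primary growth. Only inha among them reached 1 FPKM in primary growth (1.25 FPKM). The others passed through the pre-vitellogenic library alone, so the threshold allowed them only differences above 0. Of the theca and stroma names 5 of 8 reached 1 FPKM and 4 were higher, with sums of 55.1 and 60.1 FPKM. These higher ones too passed through the pre-vitellogenic library alone. The most abundant theca and stroma name, cyp17a1, was at 54.1 and 48.3 FPKM (difference -0.16), and nr5a1a and star were listed at 0 in primary growth. Sums were 8.24 and 34.0 FPKM over 5 smooth muscle names, of which 3 were higher and ACTA2 (2 of 2) was listed at 0 in primary growth, and 3.78 and 10.6 FPKM over 7 endothelium names, of which 1 was higher. Erythrocyte names (55.2 and 52.4 FPKM) and leukocyte names (3.24 and 2.52 FPKM) had none higher. With the length bin subtracted, 4 granulosa, 2 theca and stroma, 2 smooth muscle and no endothelium names were higher (background 11.6%). By that measure 4 oocyte names and 1 leukocyte name were lower (background 8.64%). The part of these cells in the matrix results was not tested, and in whole follicles more cells of a type cannot be told apart from more RNA per cell.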

How the data were processed

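The mRNA table holds FPKM per transcript with lower and upper bounds, as deposited by the authors. Its rows carry Ensembl IDs and Zv9 coordinates, per the file headers. Tools given in the submitters' processing notes, with no role for each, are Cufflinks 2.2.1 and TopHat2 2.0.11. Libraries were grouped by the cell type label, since every title reads PG, and columns PG and PV were matched to it. The small RNA table was not used.

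Rows of coding genes were summed by name. A gene's length is the mean over its transcripts weighted by FPKM. Differences are log2(FPKM + 1), counted for genes that reach 1 FPKM in either library and called at 2-fold, and nothing rescaled. Length was handled by subtracting the median of each of 10 bins. This was tried on simulated data with primary growth levels of 5 FPKM or more, so the trial does not cover the low levels of most members. The rule named members at 5 FPKM or more, the 3 largest differences of each class, those nearest the threshold, their a or b copies and leading genes of each list; other members were named after their values were seen, to complete a class. The members, classes and lists were chosen with earlier results of these data known. List names were matched in any case. Python 3.11.15 with pandas 2.3.3 was used. No sequence is printed, and some genes are not reported here. Alternatives covered pseudocounts, filters, scalings, length, gene IDs, transcripts and status marks.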

Additional observations from a re-analysis of the deposited data

How the results depend on the processing

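No paired analysis was possible because each stage has 1 library, and for the same reason no library could be left out. The counts of 18 higher and 1 lower of 53 and the median difference of 0.89 moved with the pseudocount, the filter, the scaling and the length correction. With a pseudocount of 0.1 FPKM 35 were higher and 3 lower (median 1.496), against 36.5% and 7.27% of coding genes, and with 5 FPKM 6 and 0 (median 0.27), against 14.1% and 3.01%. A filter of 5 FPKM left 14 genes, 9 higher and 1 lower (median 1.82), against 31.0% and 5.61%. Without a filter the median over 149 genes was 0.22, against 0.24 over 20350 coding genes. Centring gave 14 higher and 4 lower (median 0.46), against 14.9% and 12.3%, and the 75th percentile 16 and 3 of 51, against 17.7% and 11.3%. The same FPKM total gave 26 and 0 of 56, against 38.2% and 3.296%, and the same total without mitochondrially encoded genes 29 and 0 of 57, against 40.9% and 2.80%. Subtracting length bins gave 6 and 7, against 11.6% and 8.64%, and turned the median, and the difference of itga3b, to -0.0017. The most abundant transcript alone gave 18 and 2 of 46, against 29.6% and 6.21%. Keeping the most abundant gene ID of a name or rows marked OK, and, chosen after seeing the data, coding transcripts alone or the named families alone, left both counts within 1.5 times. Of 19 named genes past 2-fold, 6 stayed so under all 5 scalings and corrections. Depth is unknown, and the deposited intervals of all but 3 of the 60 transcripts reach 0 in both libraries.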
